A study of Mus musculus with 6 samples.

Results

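The chemokines and their receptors were followed in the anterior prostate (AP) of mice whose prostatic epithelium over-expresses the Notch1 intracellular domain (N1ICD). The members were the rows whose symbol is Ccl, Cxcl, Ccr or Cxcr followed by a number, with Cx3cl1, Cx3cr1 and Xcr1 added. This rule took 63 of 55076 rows, which carry 57 different symbols. Of these rows, 44 are ligands and 19 are receptors.

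OEx mice carry Pbsn-Cre and 1 Rosa26 N1ICD allele (Pbsn-Cre Rosa26 N1ICD/+), so that Cre driven by the probasin promoter of prostatic epithelial cells turns on N1ICD together with a co-inserted Egfp. Ctrl mice carry the same Rosa26 N1ICD/+ allele without Cre, and their labels read wild type. The labels name no treatment. All were males of 20 weeks of age, with 3 mice per group. The paper gives the cleaning of secretions under RNA isolation and qRT-PCR and does not repeat it for RNA-seq. Total RNA of the whole AP was sequenced, 1 library per mouse. Epithelium, stroma and immune cells are therefore measured together, and in such bulk samples fewer cells of a type and less RNA per cell cannot be told apart.

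Chemokines are small secreted proteins, named CC, CXC, CX3C or XC after the spacing of their first cysteines, that guide the movement of leukocytes and of some other cells. They act through G protein-coupled receptors, and most ligands and receptors have several partners. In a gland such as the prostate they can come from epithelium, fibroblasts, endothelium and immune cells, whereas most of the receptors are best known from leukocytes. Inflammatory chemokines are induced by cytokines through NF-kB and interferon signalling, and homeostatic chemokines are made steadily in a tissue.

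Values are FPKM, the fragments of a gene divided by its length and by the size of its library, so levels of different genes can be compared. They are listed below in the order of replicates 1, 2 and 3 of a group. Recovered depth was 14783712 to 18671152 reads per mouse. Notch1, whose row cannot separate the transgene from the endogenous gene, stood at 41.9, 47.6 and 78.9 FPKM in OEx mice and at 5.18, 5.55 and 3.34 FPKM in Ctrl mice, so the labels and the gene go together. The third mouse of each group stood apart. Replicates 1 and 2 had a Pearson r across genes of 0.991 in both groups, while OEx replicate 3 reached 0.951 and 0.952 with the other OEx mice and Ctrl replicate 3 reached 0.966 with both other Ctrl mice. Replicates 1 and 2 still differed by more than counting noise, with a chi-square per gene of 2.47 in OEx and 2.26 in Ctrl. Pairs with replicate 3 gave far more, 24.9 and 25.0 in OEx and 19.6 and 20.0 in Ctrl. These values do not show whether replicates 1 and 2 are independent mice. The labels list them as separate samples, and each was counted as 1 mouse. Over 8 seminal vesicle genes Ctrl replicate 3 summed to 16128 FPKM, and no other mouse exceeded 4.36 FPKM. Smooth muscle markers summed to 417, 418 and 351 FPKM in OEx and 1062, 1043 and 2245 FPKM in Ctrl mice, and all 5 were called lower in OEx, against 15.5% of all genes tested. The luminal markers of the labelled tissue were present in every mouse, with Pbsn at 2064, 1795 and 4497 FPKM in OEx and 14220.3, 14236 and 18407 FPKM in Ctrl mice.

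To ask whether the chemokine system differs between OEx and Ctrl AP, all genes averaging 1 FPKM or more were compared with limma on log2(FPKM + 1). Fold changes below are on this scale, which understates the change of low genes. Calls required a false discovery rate (FDR, Benjamini-Hochberg) under 0.05 together with a fold change over 2. Of the 63 members, 21 passed the filter, 18 ligands and 3 receptors. Only Ccl5 was called higher in OEx mice, 1 of 21 members against 12.8% of the 12553 genes tested, and 0 members were called lower, against 15.5% of all genes. With limma at an unadjusted p under 0.05, 4 members were higher and 0 lower, and limma-voom on recovered reads called 6 higher (Cx3cr1, Cxcr6, Ccl25, Cxcl2, Ccl28 and Ccr9) and 1 lower (Cxcl15) of 39 members tested, against 21.4% and 15% of the genes in that test. At an FDR under 0.05 with no demand on the fold, Ccl5, Cx3cl1 and Cx3cr1 were higher, 3 of 21 members against 30.9% of all genes, and 0 were lower, against 36.5%. The p-values measure the spread between these mice, 2 of which in each group were nearly alike.

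The low number of calls did not come with small differences between means. The median log2 fold change of the 21 members was 0.59, against -0.07 over all genes tested. Of the 21 values, 18 were above 0, against 47.0% of all genes tested. The filter kept members through the mice in which they were high, so this median and the counts over tested members below describe those members and not all 63. The groups failed to overlap for 2 of 21 members, Cx3cl1 and Cx3cr1, both higher in OEx, whereas 33.6% of all tested genes had every OEx mouse above every Ctrl mouse and 38.9% had every OEx mouse below.

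**Figure D1:**
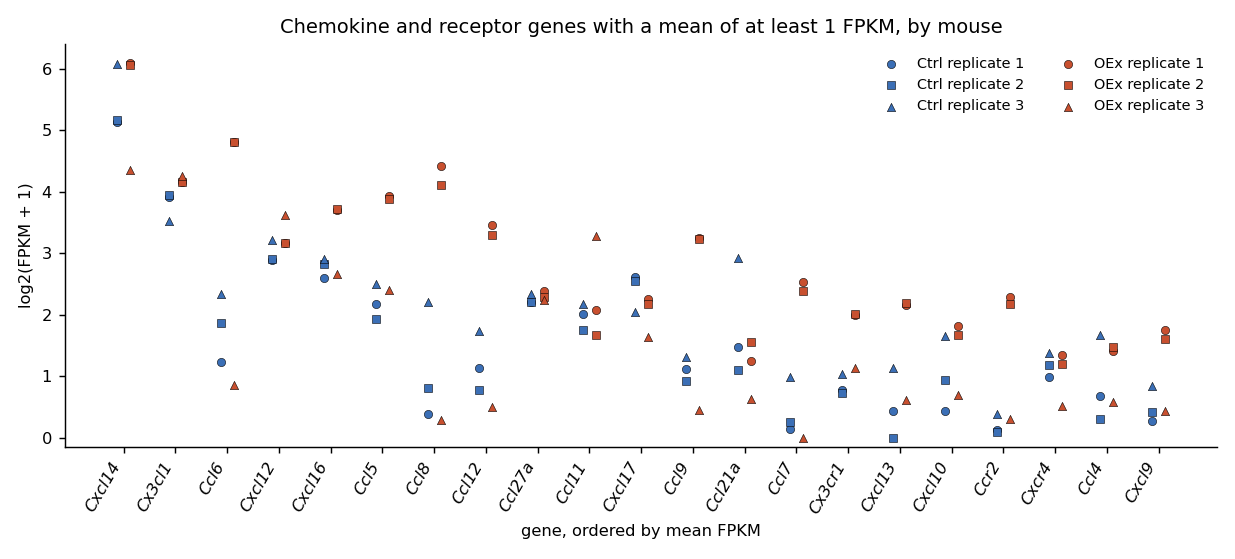
Levels of the 21 chemokine and receptor genes averaging 1 FPKM or more, as log2(FPKM + 1) on the vertical axis, with 1 point per mouse (blue, Ctrl; red, OEx; circles, squares and triangles, replicates 1, 2 and 3). OEx replicates 1 and 2 lie together near the top for genes such as Ccl6, Ccl8, Ccl12 and Ccl9, and OEx replicate 3 lies among or under the Ctrl mice for those genes.

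Most members spread widely among the OEx mice, with OEx replicate 3 low. OEx replicates 1 and 2 were within 1.33-fold of each other (on FPKM + 1) for every tested member, with a median of 1.06-fold. OEx replicate 3 was below both other OEx mice for 18 of 21 members, against 30.9% of all tested genes, and more than 2-fold below both (on FPKM + 1) for 11 of 21, against 3.09% of all genes. It was at or below the highest Ctrl mouse for 17 of 21 members, against 59.2%. OEx replicates 1 and 2 were both above all Ctrl mice for 13 of 21 members, against 37.4%. Among Ctrl mice, replicate 3 was above both others for 19 of 21 members, against 38.6%. Summed over all 63 rows, the members held 235, 225 and 84.0 FPKM in OEx mice and 89.5, 89.1 and 140.4 FPKM in Ctrl mice. The number of members with any value above 0 was 47, 48 and 42 in OEx and 36, 35 and 38 in Ctrl mice.

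Leaving out OEx replicate 3 raised the number of members called higher from 1 to 11 of 22 tested, against 12.9% of all genes, and 0 were lower, against 15.7%, with limma at an unadjusted p under 0.05 also finding 0 lower. These 11 were Ccl2, Ccl5, Ccl6, Ccl7, Ccl8, Ccl9, Ccl12, Cxcl9, Cxcl13, Ccr2 and Cx3cr1. The OEx spread in that fit rests on 2 mice that were nearly alike. Ccl7, Ccr2, Cxcl9 and Cxcl13 averaged at most 0.516 FPKM in Ctrl mice and passed the filter through OEx replicates 1 and 2. Cx3cr1 averaged 0.804 FPKM in Ctrl mice and also passed it through OEx mice. Ccl2 was under the filter with all mice and passed it without OEx replicate 3. The share called is therefore that of members kept partly because they were high in those mice. Leaving out OEx replicate 1 or OEx replicate 2 gave 0 called members of 19 in each case, against 12.3% and 12.5% of all genes called higher by limma, with 2 members higher and 0 lower at an unadjusted p under 0.05 in each. Leaving out both mice numbered 3, an alternative chosen after the data were seen, gave 15 called higher of 24, against 14.3% of all genes. Which of the OEx mice represents the genotype cannot be told from these data.

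**Figure D2:**
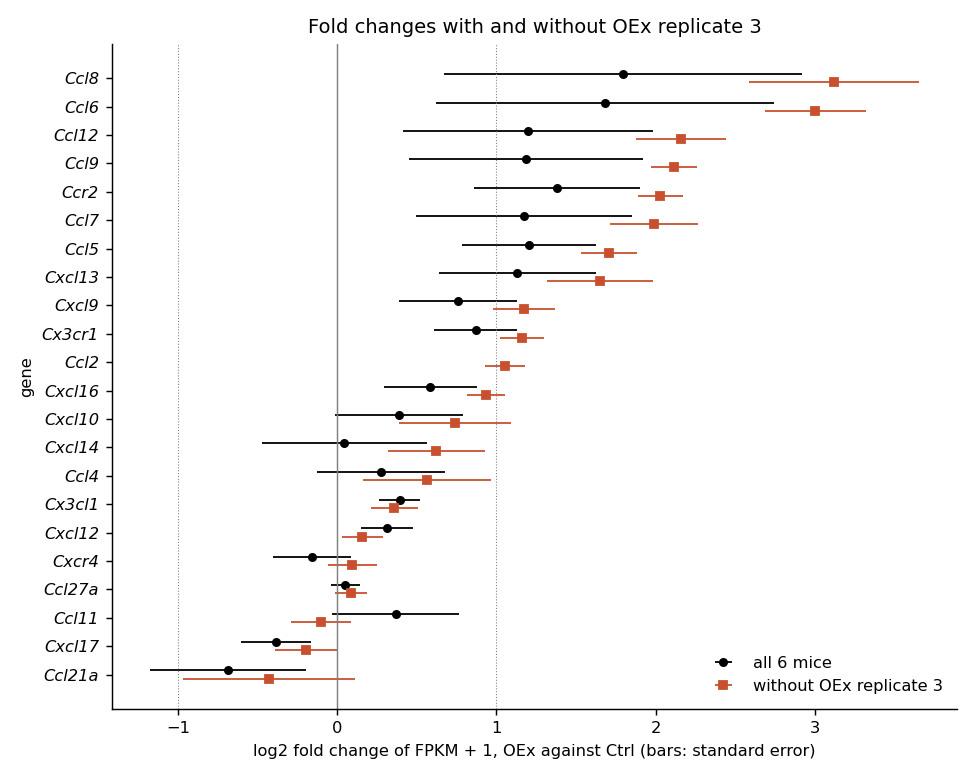
Log2 fold change of FPKM + 1 in OEx against Ctrl (horizontal axis) for the 22 members tested in either fit, with bars for the standard error. Black circles use all 6 mice and red squares leave out OEx replicate 3. Ccl8 and Ccl6 move from 1.80 and 1.68 to 3.12 and 3.003, while Cx3cl1 moves from 0.39 to 0.36 and Ccl27a from 0.05 to 0.09. Dotted lines mark a fold change of 2.

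Markers of other cell types moved across the same mice. The 7 macrophage and monocyte markers summed to 314, 300.3 and 44.3 FPKM in OEx mice and 60.4, 62.7 and 138 FPKM in Ctrl mice, with none at 0 in any mouse. Only Mrc1, a mannose receptor of tissue macrophages, was called higher with all mice, and 6 of 7 were called higher without OEx replicate 3. The 6 fibroblast markers summed to 249.8, 252 and 25.1 FPKM in OEx and 54.4, 53.1 and 94.7 FPKM in Ctrl mice, with 0 of 6 called by limma with all mice (0 at an unadjusted p under 0.05 and 0 by limma-voom) and 4 of 6 called higher without OEx replicate 3. Of all genes, 12.8% were called higher with all mice and 12.9% without OEx replicate 3. T cell markers summed to 10.4, 9.99 and 2.49 FPKM in OEx and 2.65, 2.13 and 2.28 FPKM in Ctrl mice, and NK cell markers, nearly all from Gzma, to 13.7, 13.5 and 1.56 and 1.75, 2.84 and 1.01 FPKM. Like most of the chemokines, these sums were high in OEx replicates 1 and 2 and low in OEx replicate 3. Neutrophil markers never summed to more than 2.00 FPKM, with Ly6g at 0 in 5 of 6 mice. The pan-leukocyte list did not share this order, at 51.8, 55.9 and 56.9 FPKM in OEx and 59.9, 55.4 and 183 FPKM in Ctrl mice, with Cd52, a gene also known from epithelium of the male tract, at 24.7, 25.4 and 49.4 and 51.0, 47.2 and 170.4 FPKM. Within it, Ptprc, the pan-leukocyte antigen CD45, stood at 1.85, 1.55 and 0.427 FPKM in OEx and 0.0742, 0.114 and 0.201 FPKM in Ctrl mice. The part of these cells in the chemokine levels was not tested.

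**Figure D3:**
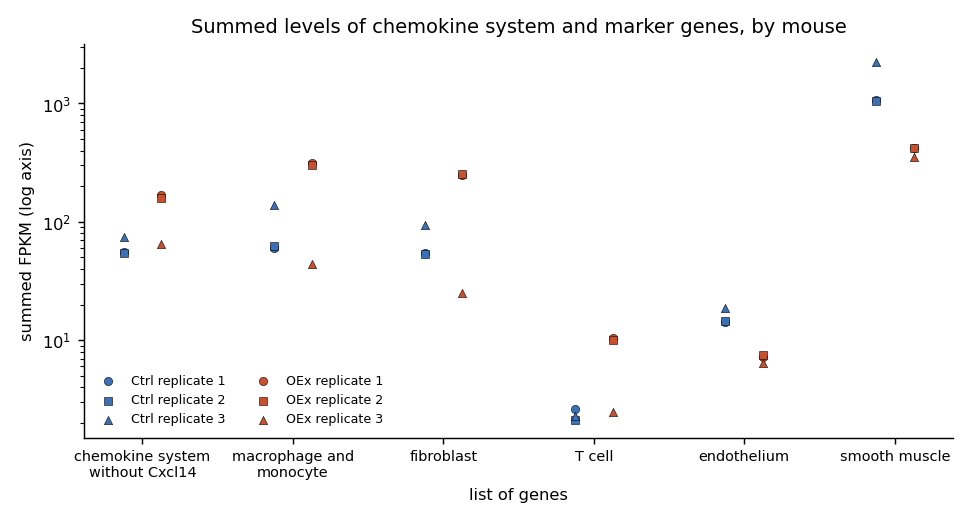
Summed FPKM per mouse on a log axis for the chemokine system without Cxcl14 and for 5 lists of cell type markers (blue, Ctrl; red, OEx; circles, squares and triangles, replicates 1, 2 and 3). The chemokine sum without Cxcl14 runs at 168, 159.5 and 64.6 FPKM in OEx mice and 55.5, 54.4 and 74.0 FPKM in Ctrl mice, and the macrophage, fibroblast and T cell sums put OEx replicates 1 and 2 above the other 4 mice, which the endothelial and smooth muscle sums do not.

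Ccl8 and the CC ligands that attract monocytes through Ccr2 spread widely between mice. Ccl8 held 20.3, 16.2 and 0.217 FPKM in OEx mice and 0.313, 0.756 and 3.61 FPKM in Ctrl mice. The log2 fold change was 1.80 (SE 1.12, FDR 0.196 by limma) with all mice and 3.12 (SE 0.534, FDR 0.00374 by limma) without OEx replicate 3. Hence 2 OEx mice were far above every Ctrl mouse, and OEx replicate 3 was below all of them by FPKM. OEx replicate 3 and Ctrl replicate 1 both had 2 reads on Ccl8, so their order rests on the scaling. Ccl12, a mouse ligand of Ccr2, held 9.99, 8.79 and 0.413 FPKM in OEx and 1.19, 0.719 and 2.33 FPKM in Ctrl mice, with a log2 fold change of 1.200 (SE 0.786, FDR 0.214 by limma). Ccl7 held 4.76, 4.20 and 0 FPKM in OEx and 0.0998, 0.193 and 0.986 FPKM in Ctrl mice, and OEx replicate 3 had 0 reads on this gene where the other OEx mice had 76 and 77. Its log2 fold change was 1.17 (SE 0.681, FDR 0.167 by limma) with all mice and 1.99 (SE 0.276, FDR 0.00170 by limma) without that mouse. Ccl2, the best known monocyte attractant, did not reach a mean of 1 FPKM and held 2.03, 1.81 and 0.195 FPKM in OEx and 0.281, 0.475 and 0.463 FPKM in Ctrl mice. By FPKM all 4 ligands had the same order, OEx replicates 1 and 2 above every Ctrl mouse and OEx replicate 3 below every Ctrl mouse. For Ccl2, OEx replicate 3 and Ctrl replicate 1 both had 4 reads, so their order rests on the scaling as well.

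Ccr2, the receptor of Ccl2, Ccl7 and Ccl12 and a marker of inflammatory monocytes, was also highest in OEx replicates 1 and 2. Its levels were 3.90, 3.52 and 0.229 FPKM in OEx and 0.0946, 0.0686 and 0.312 FPKM in Ctrl mice, on 526, 544 and 28 and 8, 6 and 32 reads. The log2 fold change of 1.38 (SE 0.522, FDR 0.0517 by limma) just missed the threshold, and it was 2.03 (SE 0.141, FDR 2.03e-04 by limma) without OEx replicate 3. OEx replicate 3 lay within the Ctrl range for the receptor. Ccr2 was called at pseudocounts of 0.1 and 0.5 FPKM, with limma FDRs of 0.0466 and 0.0499.

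Ccl8 and Ccl12 are neighbours in the first CC group of chromosome 11 (Ccl2, Ccl7, Ccl11, Ccl12, Ccl8 and Ccl1, GRCm38 chr11:82035571-82305690), and their promoters are shown with that of Ccl9 from the second CC group (Ccl5, Ccl9, Ccl6, Ccl3 and Ccl4, chr11:83525778-83664683), because all 3 genes were highest in OEx replicates 1 and 2 and lowest in OEx replicate 3. The sequences run from 250 bases before to 50 bases after the RefSeq gene start (GRCm38.p6). Of the 57 member symbols, 41 had a promoter there, in 48 entries. Capitals mark TATAAA, the letters of the core promoter box, or GTGGGAA, the core recognised by RBPJ, to which N1ICD binds, each searched on both strands.
Ccl8, chr11:82114935-82115234, plus strand: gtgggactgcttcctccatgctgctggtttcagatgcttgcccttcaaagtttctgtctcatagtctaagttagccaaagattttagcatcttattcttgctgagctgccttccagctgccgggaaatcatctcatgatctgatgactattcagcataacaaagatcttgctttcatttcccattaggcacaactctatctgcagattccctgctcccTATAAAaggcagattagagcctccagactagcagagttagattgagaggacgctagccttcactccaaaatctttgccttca
Ccl12, chr11:82101595-82101894, plus strand: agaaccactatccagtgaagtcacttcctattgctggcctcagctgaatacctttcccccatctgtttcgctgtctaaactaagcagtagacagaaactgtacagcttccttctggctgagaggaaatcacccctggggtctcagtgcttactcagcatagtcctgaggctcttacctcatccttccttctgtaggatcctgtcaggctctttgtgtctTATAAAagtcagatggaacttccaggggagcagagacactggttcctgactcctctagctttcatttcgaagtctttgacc
Ccl9, chr11:83578587-83578886, minus strand: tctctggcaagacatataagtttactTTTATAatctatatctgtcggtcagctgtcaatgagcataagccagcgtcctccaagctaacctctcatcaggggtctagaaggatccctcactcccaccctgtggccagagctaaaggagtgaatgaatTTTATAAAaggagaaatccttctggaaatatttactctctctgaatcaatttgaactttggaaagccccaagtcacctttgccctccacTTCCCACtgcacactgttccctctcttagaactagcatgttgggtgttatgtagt
Ccl8 and Ccl12 each held TATAAA starting 32 and 31 bases before the start. Ccl9 held TATAAA on the strand as printed 92 bases before the start, overlapping a match on the opposite strand 94 bases before it. On that opposite strand lay a further match 224 bases before the start and GTGGGAA 5 bases before it. TATAAA was in 13 of 48 member entries, against 13.6% of 32851 promoters, and GTGGGAA was in 2 of 48, those of Ccl9 and Ccr3, against 6.38%. These matches are letters in a window, and nothing is drawn from their presence or absence.

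The ligands of the second CC group, which act on Ccr1 and related receptors, gave much the same order of mice. Ccl6, a mouse CC chemokine made by macrophages, held 27.1, 27.0 and 0.802 FPKM in OEx and 1.34, 2.62 and 4.07 FPKM in Ctrl mice. The log2 fold change was 1.68 (SE 1.06, FDR 0.200 by limma) with all mice and 3.003 (SE 0.318, FDR 6.63e-04 by limma) without OEx replicate 3. Ccl9, its close relative, held 8.49, 8.34 and 0.364 FPKM in OEx and 1.18, 0.888 and 1.49 FPKM in Ctrl mice, with a log2 fold change of 1.19 (SE 0.737, FDR 0.193 by limma) that became 2.12 (SE 0.142, FDR 1.88e-04 by limma). For both genes OEx replicate 3 was the lowest of the 6 mice by FPKM, with 26 reads on Ccl6 against 30 in Ctrl replicate 1. Ccl4 (MIP-1 beta) held 1.67, 1.79 and 0.504 FPKM in OEx and 0.606, 0.234 and 2.19 FPKM in Ctrl mice, Ctrl replicate 3 being the highest of all, and its log2 fold change was 0.27 (SE 0.405, FDR 0.571 by limma). Ccl3 (MIP-1 alpha), under the filter, held 1.37, 1.26 and 0.217 FPKM in OEx and 0.626, 0 and 0.430 FPKM in Ctrl mice.

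Ccl5 (RANTES), an attractant of T cells and monocytes made by T cells, NK cells and other cells, was the member called higher. It held 14.3, 13.8 and 4.27 FPKM in OEx mice, mean 10.8 ± 5.64 (SD, n = 3), and 3.50, 2.82 and 4.66 FPKM in Ctrl mice, mean 3.66 ± 0.933 (SD, n = 3). It was 1.21 (SE 0.421, FDR 0.0398 by limma) higher on the log2 scale. OEx replicate 3 was under Ctrl replicate 3, so the groups overlapped. The call was lost without OEx replicate 1 (FDR 0.116), OEx replicate 2 (0.117), Ctrl replicate 1 (0.0929), Ctrl replicate 2 (0.112) and Ctrl replicate 3 (0.0554) with limma, and the log2 fold change ran from 0.94 to 1.71 over the 6 fits that left out 1 mouse. It was also lost by limma-voom (FDR 0.0765), without a filter (limma FDR 0.0798) and with the replicate block (limma FDR 0.0839). Cd8a, a T cell marker, stood at 3.40, 3.39 and 1.01 FPKM in OEx and 0.462, 0.488 and 0.271 FPKM in Ctrl mice. The whole list of 6 T cell markers did not separate the groups. It summed to 10.4, 9.99 and 2.49 FPKM in OEx and 2.65, 2.13 and 2.28 FPKM in Ctrl mice, with OEx replicate 3 within the Ctrl range. The part of T cells in the Ccl5 level was not tested.

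Ccr1, a receptor of this group, was under the filter. It held 1.98, 2.10 and 0.0391 FPKM in OEx and 0.169, 0.218 and 0.0465 FPKM in Ctrl mice, OEx replicate 3 being the lowest by FPKM. OEx replicate 3 and Ctrl replicate 3 both had 2 reads on this gene. Ccr1 lies with Ccr2, Cxcr6 and other members in the receptor group of chromosome 9, of which Ccr2 alone passed the filter.

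**Figure D4:**
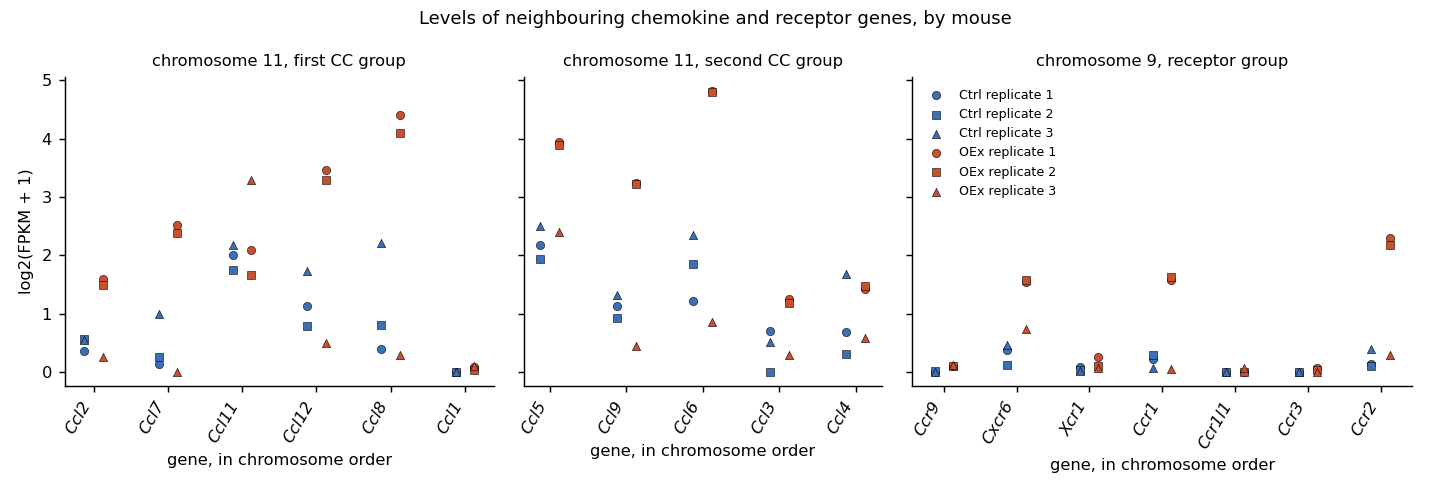
Levels of neighbouring genes as log2(FPKM + 1) by mouse, in chromosome order, for the 2 CC ligand groups of chromosome 11 and the receptor group of chromosome 9 (blue, Ctrl; red, OEx; circles, squares and triangles, replicates 1, 2 and 3). OEx replicates 1 and 2 are the highest mice for all genes of the panels averaging 1 FPKM or more except Ccl11, where OEx replicate 3 is the highest at 8.76 FPKM, and Ccl4, where Ctrl replicate 3 is.

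Ccl11 (eotaxin), which attracts eosinophils through Ccr3 and lies between Ccl7 and Ccl12, went the other way. It held 3.24, 2.18 and 8.76 FPKM in OEx and 3.03, 2.36 and 3.53 FPKM in Ctrl mice. OEx replicate 3 was over 2 times both other OEx mice on FPKM + 1 for this member and no other, 1 of 21 against 0.781% of all tested genes. The log2 fold change was 0.37 (SE 0.399, FDR 0.440 by limma) with all mice and -0.10 (SE 0.188, FDR 0.655 by limma) without OEx replicate 3, so its sign depends on that mouse. The other eotaxins were low or absent, with Ccl24 at 0.155, 0.405 and 0.0428 FPKM in OEx and 0.556, 0.0596 and 0.407 FPKM in Ctrl mice and Ccl26 at 0 in every mouse. Ccr3 held at most 3 reads in a mouse.

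Among the 21 tested members, only the CX3C ligand and its receptor had groups that did not overlap. Cx3cl1 (fractalkine), a membrane-bound ligand made by epithelium and endothelium, held 16.8, 16.8 and 18.2 FPKM in OEx mice, mean 17.3 ± 0.770 (SD, n = 3), and 14.0, 14.5 and 10.5 FPKM in Ctrl mice, mean 13.0 ± 2.17 (SD, n = 3). Its log2 fold change was 0.39 (SE 0.129, FDR 0.0319 by limma), with a 95% interval of 0.08 to 0.70, which lies under the fold required. With equal library totals it was 1.13 (95% interval 0.91 to 1.34, FDR 7.54e-05 by limma) and was called higher. The limma FDR ran from 0.0206 to 0.0788 over the 6 fits that left out 1 mouse, and it was above 0.05 without any 1 of the OEx mice. Unlike most members, Cx3cl1 was highest in OEx replicate 3, and endothelial markers summed to 7.16, 7.43 and 6.37 FPKM in OEx and 14.4, 14.5 and 18.9 FPKM in Ctrl mice. Cx3cr1, its receptor on monocytes, macrophages and cytotoxic lymphocytes, held 2.98, 3.05 and 1.19 FPKM in OEx and 0.710, 0.652 and 1.05 FPKM in Ctrl mice. Its Ctrl mean of 0.804 FPKM was under the filter, which it passed through the OEx mice. The log2 fold change was 0.87 (SE 0.259, FDR 0.0223 by limma) with all mice and 1.16 (SE 0.136, FDR 9.44e-04 by limma) without OEx replicate 3, and the FDR rose to between 0.0642 and 0.0735 without Ctrl replicate 1, Ctrl replicate 2, OEx replicate 1 or OEx replicate 2. Its exons overlap the antisense Gm33858, at most 0.164 FPKM in any mouse, and the strand used in counting is not given.

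The interferon-inducible ligands of Cxcr3, which draw activated T cells, are neighbours on chromosome 5 (chr5:92321347-92365485). Cxcl9 held 2.38, 2.06 and 0.349 FPKM in OEx and 0.212, 0.333 and 0.786 FPKM in Ctrl mice. Its log2 fold change was 0.76 (SE 0.370, FDR 0.111 by limma) with all mice and 1.17 (SE 0.195, FDR 0.00336 by limma) without OEx replicate 3. Cxcl10 held 2.54, 2.19 and 0.615 FPKM in OEx and 0.355, 0.926 and 2.13 FPKM in Ctrl mice, with a log2 fold change of 0.39 (SE 0.403, FDR 0.424 by limma). For both, OEx replicates 1 and 2 were above every Ctrl mouse, but by little for Cxcl10, where Ctrl replicate 3 came close. Cxcl10 exons overlap the antisense Art3, which was called lower in OEx at 0.982, 1.27 and 1.89 FPKM against 4.43, 4.81 and 8.25 FPKM in Ctrl. Cxcl11 held at most 4 reads in a mouse. Cxcr3, under the filter, held 0.840, 1.26 and 0.192 FPKM in OEx and 0.0924, 0.446 and 0.418 FPKM in Ctrl mice, and the groups overlapped.

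The promoters of Cxcl9 and Cxcl10 are shown because both genes are textbook targets of NF-kB and interferon signalling. Capitals mark the short NF-kB motif GGGANTTCC, the interferon response motif (GAAA repeated with any 2 bases between) and TATAAA.
Cxcl9, chr5:92328030-92328329, minus strand: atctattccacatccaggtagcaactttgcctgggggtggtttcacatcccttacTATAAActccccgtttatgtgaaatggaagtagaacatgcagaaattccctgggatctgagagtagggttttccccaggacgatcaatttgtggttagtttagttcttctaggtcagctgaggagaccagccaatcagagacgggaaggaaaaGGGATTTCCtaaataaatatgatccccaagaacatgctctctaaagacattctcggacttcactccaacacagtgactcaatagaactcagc
Cxcl10, chr5:92348840-92349139, minus strand: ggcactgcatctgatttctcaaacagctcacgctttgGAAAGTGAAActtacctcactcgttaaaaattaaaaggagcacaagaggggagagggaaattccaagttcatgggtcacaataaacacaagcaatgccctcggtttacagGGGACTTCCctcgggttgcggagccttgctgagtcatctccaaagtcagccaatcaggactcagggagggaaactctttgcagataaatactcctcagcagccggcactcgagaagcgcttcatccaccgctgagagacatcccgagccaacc
TATAAA lay 195 bases before the start of Cxcl9. The NF-kB letters began 42 bases before the start of Cxcl9 and 103 bases before that of Cxcl10, and the interferon response letters 213 bases before that of Cxcl10. GGGANTTCC was in 4 of 48 member entries (Ccl25, Ccr6, Cxcl9 and Cxcl10), against 1.68% of all promoters. The longer NF-kB motif, with 1 more T, was also in 4 (Ccr3, Cxcl1, Cxcl2 and Cxcl3), against 0.411%, and the interferon response motif was in 3 (Ccl19, Cxcl10 and Cxcl14), against 3.44%.

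Among the homeostatic CXC ligands, Cxcl14 was the most abundant member. It held 67.4, 65.5 and 19.3 FPKM in OEx and 34.0, 34.7 and 66.4 FPKM in Ctrl mice, and its log2 fold change was 0.05 (SE 0.516, FDR 0.944 by limma), with a 95% interval of -1.19 to 1.28. The order of the mice, with OEx replicate 3 lowest and Ctrl replicate 3 near the top, left the groups overlapping. Cxcl12, made by stroma and read by Cxcr4 and by the scavenger Ackr3, held 7.98, 7.96 and 11.3 FPKM in OEx and 6.43, 6.54 and 8.27 FPKM in Ctrl mice, with a log2 fold change of 0.31 (SE 0.161, FDR 0.128 by limma). Replicate 3 was the highest in each group. Cxcr4 held 1.55, 1.31 and 0.429 FPKM in OEx and 0.973, 1.28 and 1.60 FPKM in Ctrl mice, and its log2 fold change of -0.16 (SE 0.244, FDR 0.586 by limma) turned positive, 0.26, with equal library totals. Neither gene passed the test.

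Cxcl13, which attracts B cells through Cxcr5, held 3.44, 3.57 and 0.530 FPKM in OEx and 0.348, 0 and 1.202 FPKM in Ctrl mice. Its log2 fold change was 1.13 (SE 0.493, FDR 0.0811 by limma) with all mice and 1.65 (SE 0.332, FDR 0.00685 by limma) without OEx replicate 3. Cxcr5 itself held at most 4 reads in a mouse, and B cell markers summed to at most 0.848 FPKM. Cxcl16, a membrane-bound ligand and scavenger receptor, held 12.0, 12.2 and 5.30 FPKM in OEx and 5.03, 6.09 and 6.47 FPKM in Ctrl mice, with a log2 fold change of 0.59 (SE 0.293, FDR 0.118 by limma) that became 0.94 (SE 0.119, FDR 0.00125 by limma) without OEx replicate 3. OEx replicates 1 and 2 were at 12.0 and 12.2 FPKM and the other 4 mice between 5.03 and 6.47 FPKM. The antisense neighbour Zmynd15 shares exon sequence with Cxcl16 and stood at 3.02, 3.01 and 1.68 FPKM in OEx and 0.689, 0.823 and 1.36 FPKM in Ctrl mice. Cxcr6, the receptor of Cxcl16 on T cells, was under the filter at 1.92, 1.99 and 0.660 FPKM in OEx and 0.290, 0.0800 and 0.375 FPKM in Ctrl mice, on 74, 88 and 23 and 7, 2 and 11 reads. Every OEx mouse was above every Ctrl mouse, and with a filter of 0.1 FPKM the log2 fold change was 0.97 (SE 0.248, FDR 0.0154 by limma).

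Cxcl17, a mucosal CXC ligand, was the tested CXC ligand with the lowest fold change. It held 3.75, 3.51 and 2.11 FPKM in OEx and 5.15, 4.87 and 3.11 FPKM in Ctrl mice. On the log2 scale this was -0.39 (SE 0.222, FDR 0.165 by limma), which did not pass the test, and became 0.23 with equal library totals. OEx replicate 3 and Ctrl replicate 3 were the lowest mice of their groups.

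Of the neutrophil-attracting CXC ligands that lie together on chromosome 5 (chr5:90759360-90905938), only Cxcl15 (lungkine) had a steady level, and only in Ctrl mice. It held 0.0471, 0.0411 and 0.130 FPKM in OEx mice and 1.24, 1.27 and 1.299 FPKM in Ctrl mice, on 2, 2 and 5 and 33, 35 and 42 reads, and each Ctrl mouse was above each OEx mouse. Such separation was found for 7 of the 36 members with a mean of at least 0.1 FPKM, 6 higher and 1 lower in OEx, against 33.9% and 29.1% of the 19638 genes at that filter. The means (SD, n = 3) were 0.0728 ± 0.0498 FPKM in OEx and 1.27 ± 0.0297 FPKM in Ctrl mice, so it fell short of the filter of 1 FPKM. With a filter of 0.1 FPKM it was called lower at -1.08 (SE 0.0889, FDR 1.58e-04 by limma) on the log2 scale, 1 of 36 members tested against 10.1% of all genes, and Ccl5 was the 1 member called higher, against 8.97%. At that filter 6 members were higher at an FDR under 0.05 with no demand on the fold, against 28.8% of all genes. Limma-voom, which works on reads without the pseudocount of 1 FPKM, gave -4.12 (SE 0.494, FDR 2.91e-04 by limma-voom). Cxcl15 is known from epithelium of the lung and of other mucosal organs, and it was the 1 member whose level was clear in every Ctrl mouse and close to 0 in every OEx mouse. Basal epithelial markers summed to 3.72, 3.88 and 5.32 FPKM in OEx and 100.4, 99.4 and 122 FPKM in Ctrl mice, with 3 of 3 called lower and none at 0, and of 9 luminal markers 4 were called lower and 1 higher. At the same filter of 1 FPKM, 15.5% of all genes were called lower and 12.8% higher. Luminal markers summed to 3645, 3355 and 6795 FPKM in OEx and 25156, 25193 and 25297 FPKM in Ctrl mice, and the part of these cells in the Cxcl15 level was not tested. The Cxcl15 promoter is shown as that of the member with the clearest loss, with TATAAA in capitals 27 bases before the start.
Cxcl15, chr5:90794284-90794583, plus strand: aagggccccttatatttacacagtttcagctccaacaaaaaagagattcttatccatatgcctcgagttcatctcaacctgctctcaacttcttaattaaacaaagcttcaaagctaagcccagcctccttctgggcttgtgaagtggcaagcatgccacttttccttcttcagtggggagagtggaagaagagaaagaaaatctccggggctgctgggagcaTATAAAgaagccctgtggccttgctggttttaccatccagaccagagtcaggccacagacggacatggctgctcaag
Its neighbours were near 0. Cxcl1 held 8, 15 and 0 reads in OEx and 0, 2 and 0 reads in Ctrl mice, and Cxcl2 7, 6 and 3 and 0, 0 and 0 reads. Cxcl5 held at most 2 reads, and Cxcl3 was at 0 in every mouse. The receptor Cxcr2 held at most 4 reads, and the receptor Cxcr1 was at 0 in every mouse.

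**Figure D5:**
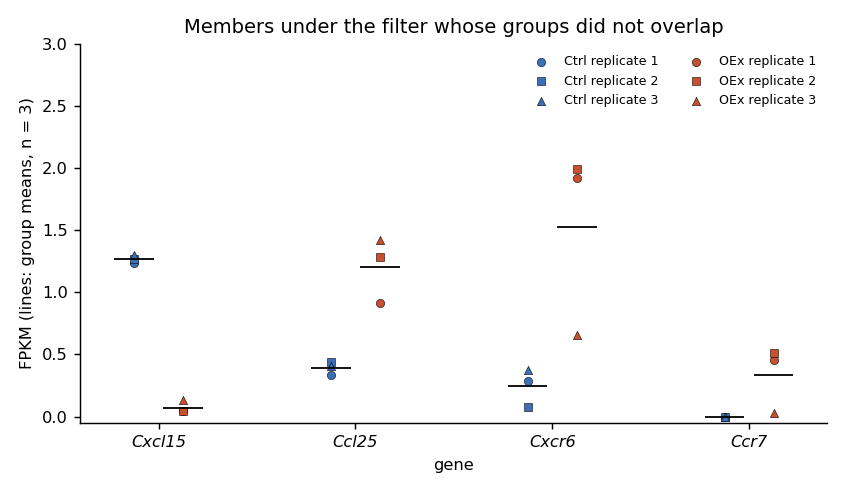
FPKM per mouse of 4 members with a mean between 0.1 and 1 FPKM whose groups did not overlap (blue, Ctrl; red, OEx; circles, squares and triangles, replicates 1, 2 and 3; lines, group means of 3 mice). Cxcl15 is near 1.27 FPKM in all Ctrl mice and at most 0.130 FPKM in OEx mice, Ccl25 is higher in all OEx mice, and Cxcr6 and Ccr7 are raised mostly in OEx replicates 1 and 2.

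Ccl25 (TECK), an epithelial ligand of Ccr9 best known from the gut and thymus, was higher in every OEx mouse. It held 0.916, 1.29 and 1.42 FPKM in OEx and 0.333, 0.436 and 0.407 FPKM in Ctrl mice, on 136, 219 and 191 and 31, 42 and 46 reads. OEx replicate 3 was the highest mouse, unlike for Ccl2, Ccl7, Ccl8 and Ccl12. With a filter of 0.1 FPKM the log2 fold change was 0.66 (SE 0.121, FDR 0.00398 by limma), and limma-voom on reads gave 1.59 (SE 0.284, FDR 0.00217 by limma-voom) and called it higher. Its exons overlap the antisense Elavl1, which was not called at 6.69, 6.49 and 6.91 FPKM in OEx and 8.16, 7.19 and 6.58 FPKM in Ctrl mice. Ccr9 held 16, 18 and 16 reads in OEx and 0, 1 and 0 reads in Ctrl mice and was also called higher by limma-voom. However, it shares exon sequence with the antisense Slc6a20a, which was called higher at 2.22, 1.94 and 3.30 FPKM in OEx and 0.176, 0.113 and 0.113 FPKM in Ctrl mice. It also shares exon sequence with Gm17200 on the same strand, at 0.496, 0.238 and 0.438 FPKM in OEx and 0, 0.0382 and 0.0325 FPKM in Ctrl mice. The Ccr9 reads therefore cannot be assigned. Ackr4, a scavenger that removes Ccl25, Ccl19 and Ccl21, was called lower, at 0.177, 0.309 and 0.319 FPKM in OEx and 2.24, 2.33 and 2.63 FPKM in Ctrl mice (a log2 change of -1.42, FDR 1.12e-04 by limma).

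The lymph node ligands and their receptor were low. Ccr7 held 18, 23 and 1 reads in OEx mice and 0 reads in every Ctrl mouse, where 3 reads on a gene of 1 kb would be 0.197 to 0.240 FPKM. The row of Ccl21a that passed the filter held 1.37, 1.96 and 0.551 FPKM in OEx and 1.79, 1.15 and 6.55 FPKM in Ctrl mice, with a log2 fold change of -0.69 (SE 0.490, FDR 0.250 by limma), which was -0.15 without Ctrl replicate 3, the highest mouse. The Ccl21, Ccl19 and Ccl27 genes exist in near-identical copies, and their 11 rows under repeated symbols are uncertain. A second Ccl21a row held at most 0.178 FPKM and a Ccl21c row at most 0.304 FPKM. Ccl27a, a ligand of Ccr10 from skin and other epithelium, held 4.24, 3.88 and 3.71 FPKM in OEx and 3.63, 3.61 and 4.07 FPKM in Ctrl mice in its first row. Its log2 fold change was 0.05 (SE 0.0938, FDR 0.649 by limma), with a 95% interval of -0.17 to 0.28, the narrowest of the tested members, but it was 0.67 (95% interval 0.39 to 0.95, FDR 0.00214 by limma) with equal library totals and 0.28 (FDR 0.0454 by limma) with the upper quartile made equal. The gene Il11ra1, which shares exon sequence with it on the other strand, was called lower at 11.4, 12.2 and 11.3 FPKM in OEx and 37.6, 36.9 and 60.8 FPKM in Ctrl mice. Ccl28, the mucosal ligand of Ccr10, held 7, 7 and 9 reads in OEx and 2, 0 and 0 reads in Ctrl mice, and Ccr10 held 0.290, 0.329 and 0.257 FPKM in OEx and 0.648, 0.0895 and 0.114 FPKM in Ctrl mice.

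Ccl17 and Ccl22, dendritic cell and macrophage ligands of Ccr4 on T cells, flank Cx3cl1 on chromosome 8 (chr8:94745590-94812036). Ccl17 held 1.66, 0.851 and 0.754 FPKM in OEx and 0.778, 0.150 and 0.256 FPKM in Ctrl mice, with overlap. Ccl22 held 26, 33 and 2 reads in OEx and 0, 0 and 2 reads in Ctrl mice. For these 2 genes OEx replicates 1 and 2 were the highest mice, while OEx replicate 3 was the highest for Cx3cl1 between them. Ccr4 held at most 2 reads in a mouse.

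The remaining members were at the edge of detection. Between 0 and 0.1 FPKM on average were 18 rows, the highest single value being 0.191 FPKM and the highest count 18 reads. Besides those already given, they were Ccl1, Ccl27b, a second Ccl27a row, Ccr8, Ccr1l1, Ccr6 and Ccl20, and Xcr1, a receptor of cross-presenting dendritic cells, with 17, 8 and 4 reads in OEx and 3, 1 and 1 reads in Ctrl mice. Of the 18, 11 had reads in OEx mice only and 3 in Ctrl mice only. Limma-voom tested only Ccr9, Cxcl2, Ccl28 and Xcr1 among these 18 rows. It called 3 of them higher in OEx, namely Ccr9 (FDR 0.00160), Cxcl2 (FDR 0.00851) and Ccl28 (FDR 0.0235), on at most 18 reads in a mouse. The Ccr9 reads cannot be assigned, because its exons overlap other genes. Xcr1 was not called (FDR 0.115 by limma-voom). The share of all genes called higher in that test was 21.4%. At 0 in every mouse were 9 rows, for Cxcr1, Cxcl3, Ccl26, Ccl19, Ccl21b and Ccl21c and for a further row of Ccl27a. A count of 0 allows up to 3 reads, and these limits cover counting error only.

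Of 11 other genes of the chemokine system, 8 were tested, 1 was called higher and 2 lower, against 12.8% and 15.5% of all genes. Their median log2 fold change was -0.06, against -0.07 over all genes. Dpp4, the dipeptidase that trims Cxcl10, Cxcl12 and other chemokines, stood at 30.7, 31.4 and 29.5 FPKM in OEx and 12.0, 12.9 and 11.5 FPKM in Ctrl mice (a log2 change of 1.26, FDR 4.50e-05 by limma). Rarres2 (chemerin) was called lower besides Ackr4, at 2.59, 2.09 and 0.793 FPKM in OEx and 4.85, 3.98 and 6.91 FPKM in Ctrl mice (a log2 change of -1.18, FDR 0.0110 by limma), which became -0.88 (FDR 0.0136 by limma), under the fold required, without OEx replicate 3. Ackr3, the scavenger of Cxcl12, stood at 35.4, 34.2 and 25.2 FPKM in OEx and 21.8, 22.8 and 15.2 FPKM in Ctrl mice with a log2 fold change of 0.65, under the fold required. Dpp4 and Ackr4 were alike in all 3 OEx mice.

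Of 14 genes that carry the receptor signal, 10 were tested, and 1 was called in each direction, against 12.8% higher and 15.5% lower of all genes. At an FDR under 0.05 with no demand on the fold, 3 were higher and 5 lower, against 30.9% and 36.5%, and the median of the 10 was -0.33. Dock2, a Rac activator of leukocyte migration, stood at 3.68, 3.58 and 4.27 FPKM in OEx and 0.245, 0.135 and 0.386 FPKM in Ctrl mice (a log2 change of 1.95, FDR 5.07e-05 by limma). Grk3, a kinase that desensitises receptors, stood at 0.525, 0.573 and 0.421 FPKM in OEx and 2.80, 2.51 and 2.69 FPKM in Ctrl mice (a log2 change of -1.28, FDR 1.15e-04 by limma). Dock2 was high in all 3 OEx mice, whereas Rac2, another gene of leukocytes, stood at 4.25, 4.89 and 1.07 FPKM in OEx and 1.26, 1.39 and 2.33 FPKM in Ctrl mice.

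Of 15 NF-kB and inflammatory inducers, 9 were tested with a median of 0.51, and 2 were called higher and 0 lower by limma, against 12.8% and 15.5% of all genes. With no demand on the fold, 5 were higher and 1 lower at a limma FDR under 0.05 (6 and 1 at an unadjusted p under 0.05). Of all genes, 30.9% were higher and 36.5% lower at that FDR. Limma-voom called 3 of 12 higher and 0 lower, against 21.4% and 15% of the genes in that test. Nfkbiz, which encodes a nuclear co-factor of NF-kB, stood at 7.81, 7.79 and 5.65 FPKM in OEx and 0.828, 0.877 and 1.55 FPKM in Ctrl mice (a log2 change of 1.96, FDR 1.48e-04 by limma). Nfkb1, an NF-kB subunit, stood at 11.1, 11.6 and 11.4 FPKM in OEx and 4.49, 5.002 and 4.17 FPKM in Ctrl mice (a log2 change of 1.16, FDR 8.19e-05 by limma). Both were high in every OEx mouse, OEx replicate 3 included. Il1b, under the filter, stood at 2.00, 2.04 and 0.232 FPKM in OEx and 0.210, 0.203 and 1.14 FPKM in Ctrl mice. Of 7 interferon inducers, 5 were tested and 0 were called by limma or by limma-voom, with 2 higher and 0 lower at an unadjusted p under 0.05. Irf1, a factor induced by interferon, stood at 12.9, 12.2 and 12.9 FPKM in OEx and 10.3, 9.85 and 8.95 FPKM in Ctrl mice, which is a log2 change of 0.36 at an FDR of 0.00859 by limma, and Ifng held at most 0.0774 FPKM.

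The scaling between mice changed the balance of calls. Divided by the recovered reads, the denominator behind the authors' values came to 1.22 to 1.34 in the OEx group but to 0.725 to 0.814 in the Ctrl group, where 1 gene took 14.2% to 22.0% of the reads. With equal library totals the median of all genes moved from -0.07 to 0.60, and the calls went from 1604 higher and 1941 lower to 4029 higher and 514 lower. Of 23 members tested then, 8 were called higher and 0 lower, against 31.5% and 4.02% of all genes. The members' median was then 1.13, and 22 of the 23 values were above 0, against 74.5% of all genes. The 8 called were Ccl5, Ccr2, Cx3cl1, Cx3cr1, Cxcl12, Cxcl13, Cxcl16 and Cxcr6. With the upper quartile made equal, 2350 genes were called higher and 1222 lower, and Ccl5 and Cx3cr1 were the called members, 2 of 21 against 18.6% of all genes, with 0 lower against 9.68%. With pseudocounts of 0.1 and 0.5 FPKM, Ccl5, Ccr2 and Cx3cr1 were called higher, 3 of 21 against 17.9% and 15.7%. Without a filter 0 of 54 members were called higher by limma (14 at an unadjusted p under 0.05), against 6.14%, and Cxcl15 alone was called lower, against 6.94%.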

How the data were processed

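RNA-seq of the whole AP was done on 3 OEx and 3 Ctrl mice. Per the labels, total RNA was extracted with Trizol, libraries were made with a TruSeq kit and sequenced on an Illumina HiSeq instrument. FPKM values per gene symbol were deposited by the authors in a table for each mouse, and the submitters' processing notes name CASAVA, HISAT2 2.0.5, StringTie 1.3.3b and featureCounts 1.5.0-p3. The genome build, the annotation and the strand setting are not given in the sources used here.

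Rows were matched by symbol to the mouse GENCODE annotation of GRCm38 (53762 of 55076), whose exon lengths turned FPKM into reads. Of low values, 96.9% to 97.5% were whole within 0.05 reads. The 544 rows without a name (at most 1.21% of the FPKM of a mouse) were left out of tests. The groups were compared with limma 3.58.1 (R 4.3.3) on log2(FPKM + 1), the group being the only term, with eBayes and an intensity trend, over rows averaging 1 FPKM or more. Calls needed an FDR under 0.05 and a fold change over 2. Limma-voom on recovered reads (at least 10 over the mice) was an alternative, as were other pseudocounts, filters, scalings, a replicate block and leaving out each mouse. The steps were tested on simulated data. Members were named, except 1 that is not reported here, those under 0.1 FPKM or with overlapping groups under 1 FPKM by range or briefly, and pathway genes where called. Members and lists were chosen with earlier results of these data known. Cd52, Ptprc, Cd8a, Gzma, Ly6g, Mrc1, Pbsn, Il1b, Rac2, Irf1, Ifng, Ackr3, Gm17200 and the antisense neighbours were named after their values were seen. Promoters came from RefSeq (GRCm38.p6). Python 3.11.15, pandas 2.3.3 and matplotlib 3.10.9 made tables and plots. Nothing shows whether reads are independent molecules, so limits from counts cover counting error only.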

Additional observations from a re-analysis of the deposited data

How the results depend on the processing

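The number of members called higher, 1 in the fit reported, was 3 by FDR alone, 0 at an FDR under 0.01, 3 at pseudocounts of 0.1 and 0.5 FPKM, 0 without a filter, 2 with upper quartile scaling, 8 with equal library totals, 6 by limma-voom, 15 without both mice numbered 3 (chosen after the data were seen), and 0 to 11 over the fits that left out 1 mouse. The number called lower, 0, was 1 with a filter of 0.1 FPKM, without a filter and by limma-voom, in each case Cxcl15. Over all genes, 1604 higher and 1941 lower became 3875 and 4584 by FDR alone, 4029 and 514 with equal library totals, 4340 and 3034 by limma-voom, and 1222 lower with upper quartile scaling. Members without overlap, 2, became 7 with a filter of 0.1 FPKM and 9 with equal library totals. The cause of these shifts was not tested.

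Signs that reversed belonged to members that did not pass the test. Cxcl14 ran from -0.25 to 0.62 over the fits that left out 1 mouse (-0.12 and -0.10 without Ctrl replicates 1 and 2, -0.25 and -0.23 without OEx replicates 1 and 2), Ccl11 from -0.10 to 0.71, Cxcr4 from -0.32 to 0.10 and Ccl4 from -0.017 to 0.56. Without both mice numbered 3, Ccl11 was -9.2e-04, Ccl21a 0.11 and Cxcr4 0.19. With equal library totals, Cxcl17 was 0.23 and Cxcr4 0.26.

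Replicate numbers run from 1 to 3 in both groups, but nothing says that they pair mice. Deviations of same-numbered mice correlated at -0.314 to -0.192, and 0 of 6 mice were closest to their own number. With the replicate block, 0 members were called higher by limma (2 at an unadjusted p under 0.05).

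Depth limits the members under 1 FPKM, many of which rest on fewer than 10 reads in a mouse, and 3 mice per group, with replicates 1 and 2 nearly alike in each, limit the rest.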
